A study of Mus musculus with 8 samples.

Results

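Cells of the entospletinib pool and of the vehicle pool taken 14 days after ischemia-reperfusion injury (IRI) were compared gene by gene and class by class. The members of the comparison were all cells that the deposited cell table assigned to these 2 conditions and that had more than 300 detected genes, fewer than 20000 counts and less than 25% mitochondrial counts. They numbered 29405 (12144 with entospletinib and 17261 with vehicle) of 90855 cells that passed the same limits in all 7 conditions and of 120281 barcodes in all. C57BL/6 mice underwent unilateral ischemia of the left kidney for 30 min and received entospletinib (20 mg/kg, intraperitoneal) or DMSO vehicle 30 min before injury, daily to day 7 and every 2 days thereafter to day 14. The kidneys of 3 mice per condition were pooled and dissociated, and live leukocytes were enriched by FACS through scatter and exclusion of a dead-cell dye, so tubule and endothelial cells in the data are those that passed this sort. The uninjured control pool, also of 3 mice, received no surgery and is given beside the day-14 values for reference.

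SYK is a cytoplasmic tyrosine kinase that transmits signals from B cell receptors, Fc receptors, integrins and C-type lectins, and entospletinib is an ATP-competitive inhibitor of it. After IRI, neutrophils and monocytes enter the kidney, peritubular capillaries are lost and proximal tubule cells dedifferentiate, and kidneys that fail to resolve these changes go on to fibrosis. No transcript in the data reports the activity of the kinase, so exposure to the drug could not be checked from the counts.

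Each condition was 1 pool, so there was no biological replicate, no test of the difference between the conditions was possible and no p-value was computed. The cells of all conditions were split over 8 sublibraries, which are technical portions of the same pool, and an SD given here is over these 8. Of the barcodes, 67.5% of 17992 passed the limits with entospletinib and 94.1% of 18353 with vehicle, with a total of 15204925 and 51399604 counts. The entospletinib cells were shallower, with a median of 933 counts and 557 genes against 2391 counts and 1129 genes. They also held more ribosomal protein gene counts, with 24.0% of cells above a share of 1.5% against 4.23%. Within a condition, 954 barcodes occurred in 2 or more sublibraries with entospletinib and 1862 with vehicle, and no barcode was shared by both conditions.

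To compare cells at equal depth, each cell was thinned at random to 500 counts, which left out 909 shallower cells with entospletinib and 177 with vehicle and kept 11235 and 17084. A cell was assigned to a class when its thinned counts held at least 2 counts of that class's markers and more than of any other class's. Classes are written as "-like" because the gate is a range and not a cell type. Near that limit, with just the minimum of 2 marker counts or a lead of 1 count over the next class, lay 54.6% of T-cell-like cells with entospletinib and 53.8% with vehicle. The gate was loosest for classical-monocyte-like cells, with 78.4% and 74.4% near the limit and none in a cluster of that name, and for cDC2-like (75.0% and 73.4%) and nonclassical-monocyte-like cells (69.6% and 70.4%). The median cell of every class with a share given below held at most 1 marker count of all other classes together. In all, 7104 cells with entospletinib and 9830 with vehicle were assigned, which left 36.8% and 42.5% without a class. A share describes the sorted suspension, in which more cells of a class and fewer cells of the others cannot be told apart. Intervals on shares are exact binomial (Clopper-Pearson) 95% intervals, intervals on expression are exact Poisson 95% intervals, and both cover counting error only.

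The entospletinib pool held a larger share of B-cell-like, T-cell-like, endothelial-like and tubule-like cells and of plasmacytoid-dendritic-cell-like (pDC-like) cells, and a smaller share of neutrophil-like and classical-monocyte-like cells. B-cell-like cells made up 11.1% (interval 10.5 to 11.7%, SD 0.836) with entospletinib and 2.56% (2.33 to 2.81%, SD 0.288) with vehicle, a 4.33-fold difference. The sublibraries ranged from 9.94 to 12.3% and from 2.14 to 2.99%, so the pools did not overlap, and the uninjured control stood at 3.72%, below the entospletinib pool. T-cell-like cells made up 6.47% (6.02 to 6.94%, SD 0.916) and 3.80% (3.52 to 4.10%, SD 0.381). The T-cell-like difference held in all 8 sublibraries but was not present among cells with less than 1.5% ribosomal protein gene counts, where the log2 ratio was -0.00097, nor among cells with at least 1000 counts, where it was 0.07. Of T-cell-like cells, 57.6% exceeded that ribosomal share with entospletinib against 8.92% with vehicle, and of B-cell-like cells 42.7% against 9.82%. The B-cell-like ratio was 2.12 on the log2 scale and was 1.80 below the ribosomal limit and 1.40 among cells with at least 1000 counts. The part of the ribosomal share in the T-cell-like share was not tested.

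**Figure D1:**
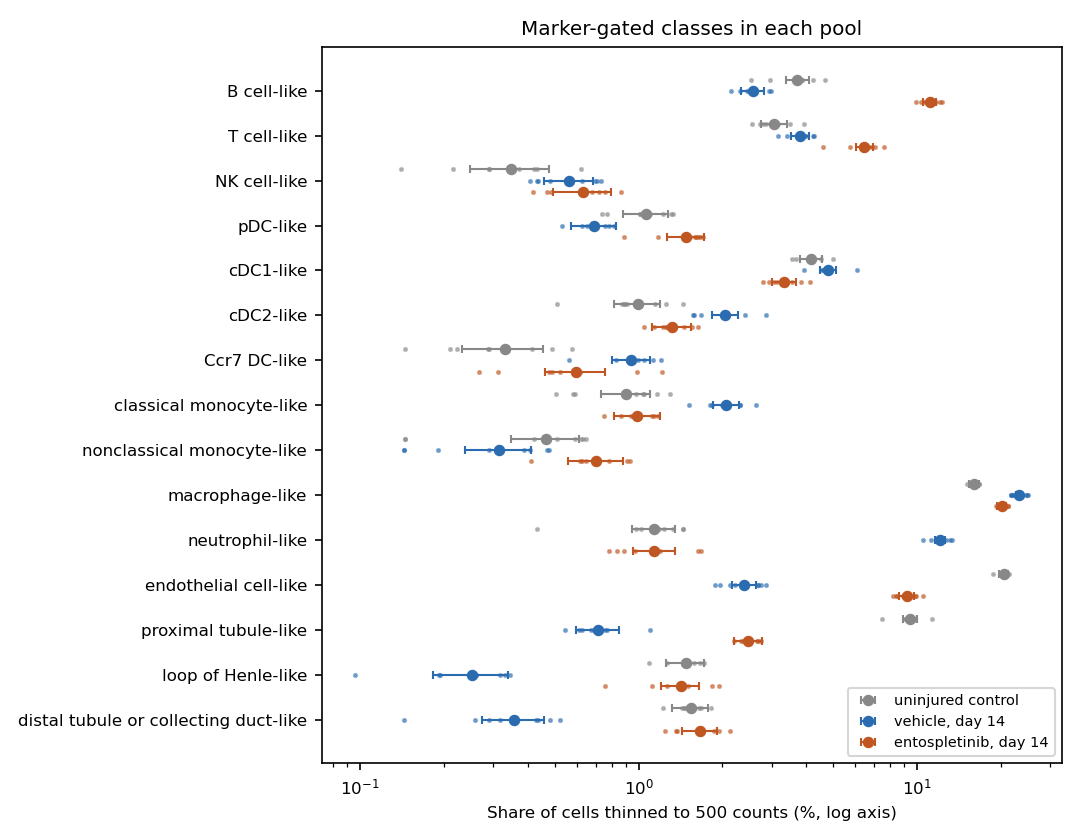
Share of cells thinned to 500 counts (x axis, percent, log scale) for marker-gated classes (y axis) in the uninjured control, vehicle day 14 and entospletinib day 14 pools. Large points give the pool with its exact 95% interval and small points the 8 sublibraries. Entospletinib lies to the right of vehicle for B-cell-like cells (11.1% against 2.56%) and each tubule class, and to the left for neutrophil-like cells (1.14% against 12.1%).

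Neutrophil-like cells formed 1.14% (0.951 to 1.35%, SD 0.348) of the entospletinib pool and 12.1% (11.6 to 12.6%, SD 0.971) of the vehicle pool, a 10.6-fold lower share. The highest sublibrary with entospletinib reached 1.67% and the lowest with vehicle 10.5%, and the control held 1.13%. The ratio was -3.41 on the log2 scale, -2.32 among cells with at least 1000 counts and -5.18 when cells were taken from clusters. Classical-monocyte-like cells made up 0.988% (SD 0.146) and 2.06% (SD 0.356), with 0.902% in the control. In macrophage-like cells, the largest class, shares were close together, at 20.1% (SD 0.748) with entospletinib and 23.2% (SD 1.502) with vehicle. The ratio lay below 1 in all 8 sublibraries but above it, at 0.04 on the log2 scale, below the ribosomal limit. That total joined clusters of cells whose shares lay on opposite sides. Cluster 1, led by *Slco2b1* and *Fkbp5*, had a log2 ratio of 3.06, while clusters 0 (*Fcrls*, *Stab1*), 4 (*Bag3*, *Hmox1*) and 7 (*Negr1*, *Sirpb1a*) had -1.27, -0.75 and -1.56. These clusters were built on genes that differ between the pools, so their sizes are a description. Nonclassical-monocyte-like cells, which patrol vessels, stood at 0.703% and 0.316%, higher with entospletinib in 7 of 8 sublibraries.

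Dendritic cell classes did not move together. The pDC-like share, of cells known for type I interferon production, was 1.48% (1.26 to 1.72%) with entospletinib and 0.691% (0.572 to 0.827%) with vehicle, higher in all 8 sublibraries, with 1.06% in the control. The cDC1-like share, of cells that cross-present antigen to CD8 T cells, was 3.33% (3.00 to 3.68%) against 4.78% (4.46 to 5.11%). For cDC2-like cells the values were 1.32% and 2.04%, lower with entospletinib in all 8 sublibraries. Cells like *Ccr7*-positive migratory dendritic cells formed 0.596% and 0.942%, in no single direction over the sublibraries (2 of 8 higher). For NK-cell-like cells the shares were 0.632% and 0.562% with overlapping intervals (0.494 to 0.796% and 0.455 to 0.686%), and the sign of their ratio changed, to -1.47 on the log2 scale, among cells with at least 1000 counts.

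Parenchymal classes were more frequent with entospletinib in every sublibrary. Endothelial-like cells reached 9.17% (8.64 to 9.72%, SD 0.836) against 2.39% (2.17 to 2.63%, SD 0.393), a 3.83-fold difference, and the control stood higher than both at 20.4%. Proximal-tubule-like cells stood at 2.47% (2.20 to 2.78%) and 0.714% (0.593 to 0.852%), below the 9.41% of the control. For loop-of-Henle-like cells the shares were 1.42% and 0.252%, and for cells like distal tubule or collecting duct 1.66% and 0.357%. In both of these classes the entospletinib value lay beside that of the control (1.47% and 1.54%). The share of stroma-like cells was small, at 0.187% and 0.287%, and had no single direction over the sublibraries (2 of 8 higher).

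Expression was compared from the full counts of the cells, summed per class and condition and given in CPM (counts scaled to a total of 1000000 in each pool and class). Ratios are log2(entospletinib / vehicle) relative to the median gene of the class. A gene was called higher or lower when it was at least 2-fold away from that median gene and on the same side of it in all 8 sublibraries, among genes averaging 50 CPM or more and expected to reach 30 counts in each pool. Markers used by the gate were left out of the calls. In most classes thinned counts left fewer genes above these minima, so numbers of calls on them are not directly comparable with the main ones. Another scaling (trimmed mean of M values, TMM) moved the centre of the ratios and with it the split of calls, which is given beside the main one where it changed by more than 10 percentage points. Over all thinned cells of the 2 pools, 147 of 3492 genes (4.21%) were called higher and 112 (3.21%) lower, and 92 and 258 with TMM, a comparison in which makeup and expression cannot be told apart. The genes called higher included the distal tubule growth factor *Egf* (175 against 12.9 CPM) and the collecting duct kallikrein *Klk1* (183 against 22.0 CPM). Those called lower included the C-type lectin receptor gene *Clec4n* (13.3 against 88.4 CPM), and *Ptgs2*, which encodes the inducible cyclooxygenase (64.0 against 290 CPM). The control stood at 257, 88.8, 7.59 and 38.7 CPM for these 4 genes, on the entospletinib side of the vehicle value in each.

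Within classes, 10 classes held at least 100 cells in both pools, and 5670 genes could be compared in at least 1 of them. *Fkbp5*, which encodes a cochaperone that restrains the glucocorticoid receptor and is itself induced by it, had the largest ratio of all kept genes in macrophage-like cells and was called higher in 8 of the 9 classes in which it passed the filter. In macrophage-like cells it stood at 853 CPM (817 to 890) with entospletinib and 76.4 CPM (71.4 to 81.7) with vehicle, and at 402 CPM in the control. The entospletinib sublibraries ranged from 740 to 910 CPM around a median of 864, and the vehicle sublibraries from 63.9 to 96.6 around 77.1, far apart from each other. The macrophage-like cells of the pools lay in different clusters: cluster 1, which *Fkbp5* helped to define, held 43.4% of them with entospletinib and 4.23% with vehicle, and clusters 0, 4 and 7 together with the unnamed cluster 6 (*Arl5c*, *Cd86*) held most of the vehicle cells. A change within like cells and a different makeup of the class cannot be told apart here. The relative log2 ratio was 3.43 (SD 0.24) in macrophage-like, 2.89 (SD 1.46) in classical-monocyte-like, 2.56 (SD 1.18) in cDC2-like and 2.28 (SD 0.35) in cDC1-like cells. These 3 classes also held more cells of cluster 1 with entospletinib, at 8.11% against 1.70% of classical-monocyte-like, 7.43% against 0.573% of cDC2-like and 9.89% against 0.490% of cDC1-like cells, so the same limit applies to them. Outside the myeloid classes it was 2.61 (SD 0.61) in proximal-tubule-like, 1.91 (SD 0.52) in endothelial-like, 1.83 (SD 1.25) in B-cell-like and 1.39 (SD 0.83) in pDC-like cells. The ninth class, T-cell-like cells, did not meet the call, with 211 against 121 CPM, a ratio of 0.85 (SD 0.67) and 7 of 8 sublibraries higher. The vehicle value was below the control in all 9 classes and the entospletinib value above it in all 9.

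*Nr4a3*, an orphan nuclear receptor gene transcribed within minutes of receptor stimulation, was on the lower side in all 10 classes and was called lower in 4 of them. In cDC1-like cells it stood at 333 CPM (290 to 380) with entospletinib against 782 CPM (754 to 811) with vehicle, and the control at 213 CPM. Its entospletinib sublibraries ranged from 170 to 449 CPM (median 330) and its vehicle sublibraries from 550 to 954 CPM (median 782), without overlap. The ratio was -1.29 (SD 0.44) there, -1.67 (SD 0.64) in macrophage-like, -1.46 (SD 0.42) in T-cell-like and -2.002 (SD 1.17) in pDC-like cells. In endothelial-like cells the ratio was -2.67, with 25.7 against 169 CPM, and in B-cell-like cells -1.96, with 84.0 against 327 CPM, each with 1 of 8 sublibraries on the other side. In cDC2-like (-0.53, SD 1.11) and neutrophil-like cells (-0.77, SD 0.52) it stood closer to the median gene. The makeup of macrophage-like, T-cell-like and cDC1-like cells differed between the pools, so the limit given for *Fkbp5* applies here too.

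**Figure D2:**
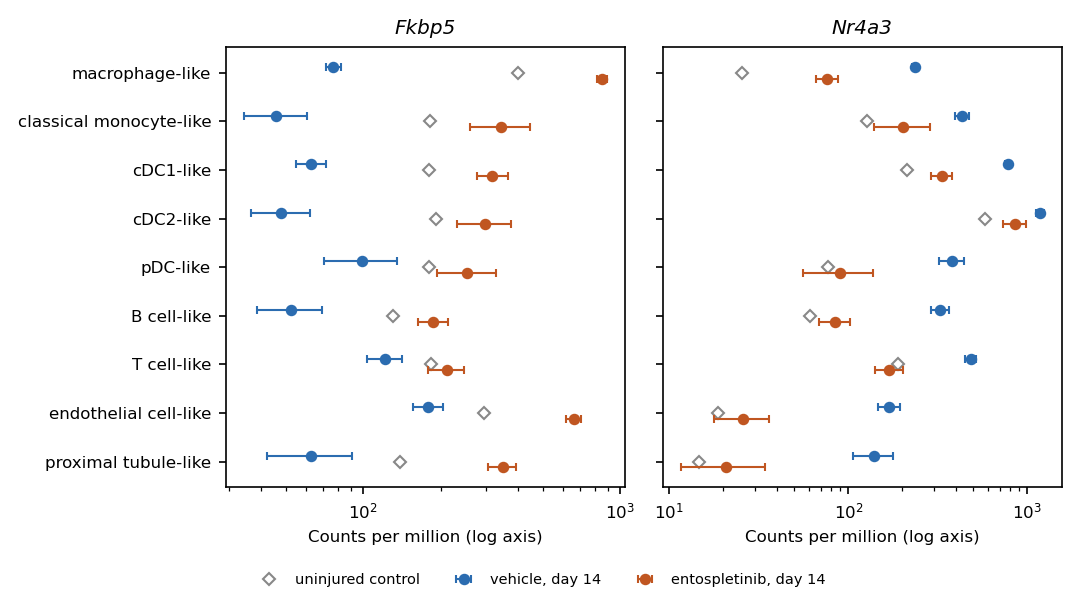
Expression of *Fkbp5* and *Nr4a3* (x axes, CPM, log scale) in 9 marker-gated classes (y axis) at day 14, with exact Poisson 95% intervals; open diamonds give the uninjured control. *Fkbp5* with entospletinib lies to the right of both vehicle and control in each class (853 against 76.4 and 402 CPM in macrophage-like cells), and *Nr4a3* lies to the left of vehicle in each.

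The promoter windows of both genes, from RefSeq (GRCm38.p6, 250 bases before to 50 bases after the gene start), are shown because each gene moved in one direction across classes. A pair of hexamers, chosen with the results in view, were searched on both strands: TGACGT, the core of the cAMP response element bound by CREB and ATF factors, and AGAACA, a half-site of the glucocorticoid response element. The *Nr4a3* window (chr4:48045055-48045354, plus strand) held TGACGT 3 times, in capitals below, and the *Fkbp5* window (chr17:28486100-28486399, minus strand) held neither hexamer. Sequence outside these windows was not searched. Of 32851 promoter windows of this length, 7.51% held TGACGT at least once and 0.201% at least 3 times, and 19.0% held AGAACA.
Nr4a3: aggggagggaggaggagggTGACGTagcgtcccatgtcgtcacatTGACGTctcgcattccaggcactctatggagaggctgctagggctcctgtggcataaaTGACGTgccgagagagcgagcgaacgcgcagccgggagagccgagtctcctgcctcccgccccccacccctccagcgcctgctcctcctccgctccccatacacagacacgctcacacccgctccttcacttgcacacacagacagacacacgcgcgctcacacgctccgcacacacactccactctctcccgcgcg
Fkbp5: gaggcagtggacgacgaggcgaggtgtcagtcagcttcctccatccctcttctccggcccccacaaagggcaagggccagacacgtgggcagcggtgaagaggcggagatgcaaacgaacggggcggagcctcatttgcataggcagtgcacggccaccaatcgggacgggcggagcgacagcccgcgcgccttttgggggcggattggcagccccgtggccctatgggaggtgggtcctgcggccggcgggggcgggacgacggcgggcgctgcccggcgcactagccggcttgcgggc

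Some of the calls that recurred across classes belonged to transcripts whose level differed widely between all pools. The calls shared by the most classes were higher *Il31ra*, a cytokine receptor subunit, and *Cdk8*, a kinase of the Mediator complex, each in 10 of 10 classes with ratios of 1.44 to 2.28 and 1.06 to 1.77. *Cdk8* was a very abundant transcript, at 19277 against 8789 CPM in macrophage-like cells, and across the other pools it varied from 4430 CPM (vehicle, day 1) to 35769 CPM (vehicle, day 7). *Rn7sk*, a small nuclear RNA that holds back transcription elongation, was lower in 8 classes (118 against 366 CPM in macrophage-like cells), and the mitochondrial leucyl-tRNA synthetase gene *Lars2* was lower in 7 (5035 against 12321 CPM). Counts of *Lars2* were left out of clustering but kept in the calls. At day 7 the *Cdk8* and *Il31ra* ratios in macrophage-like cells were -1.51 and -1.56 and that of *Rn7sk* 0.82, opposite to day 14. *Ccnd3*, a D-type cyclin gene, was higher in 6 classes, with 1169 against 384 CPM in macrophage-like cells. Leaving out a sublibrary took some of these calls under 2-fold. These were *Cdk8* in cDC2-like (0.94), *Ccnd3* in classical-monocyte-like (0.96) and pDC-like (0.92) and *Lars2* in endothelial-like cells (-0.99). *Atg4a*, an autophagy protease gene, was higher in 6. *Nlrp3*, the inflammasome sensor gene, and *Egr1*, an immediate early transcription factor gene, were each lower in 4.

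Ribosomal protein genes had a positive median ratio in all 10 classes. In T-cell-like cells 41 of 68 kept members were called higher and none lower, with a median ratio of 1.15, where 2.84% of all kept genes were called higher. The corresponding counts were 17 of 46 (median 0.89, all genes 2.22%) in endothelial-like, 16 of 66 (0.69, all genes 1.03%) in B-cell-like and 4 of 68 (0.58, all genes 0.642%) in cDC1-like cells. Where few members were kept, 5 of 7 were called higher in neutrophil-like (1.43, all genes 3.6%), 5 of 16 in pDC-like (0.96, all genes 1.2%) and 2 of 12 in classical-monocyte-like cells (0.81, all genes 1.56%). In macrophage-like cells 2 of 51 members were called higher (all genes 0.752%), in cDC2-like 1 of 33 (0.618%) and in proximal-tubule-like cells 1 of 26 (2.37%). Medians in these classes were 0.40 to 0.63. These classes differed in how many cells exceeded the 1.5% ribosomal share, at 57.6% against 8.92% of T-cell-like cells and 10.0% against 1.47% of endothelial-like cells. Its relation to depth and cell handling was not tested.

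In T-cell-like cells, entospletinib went with higher *Klf2*, a gene of naive and recirculating lymphocytes, and with lower *Cxcr6*, a gene of tissue-resident T cells. Over all 3239 genes kept in this class, 92 (2.84%) were called higher and 40 (1.23%) lower, against 76 and 75 with TMM and 17 and 13 among cells below the ribosomal limit. The T-cell-like cells of the pools lay in different clusters. Cluster 13, led by *Lef1* and with *Tcf7* and *Il7r* among its leading genes, held 61.6% of them with entospletinib and 7.23% with vehicle, and cluster 3, led by *Tox*, held 34.5% and 83.8%. For all T-cell-like values, a change within like cells and a different makeup of the class cannot be told apart. *Klf2* and *Cxcr6* were each the 1 gene called in that direction among 16 kept genes of a list of T cell state, whose median ratio was -0.0074. *Klf2*, the transcription factor gene that keeps T cells in circulation, stood at 120 CPM (96.3 to 149) against 35.2 CPM (26.0 to 46.5), a ratio of 1.81 (SD 0.53). Its sublibraries ranged around medians of 130.4 and 31.5 CPM, and the lowest entospletinib sublibrary (52.0 CPM) met the highest vehicle one (52.0 CPM). The control lay between the pools, at 65.5 CPM.

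Apart from *Klf2* and *Cxcr6*, no gene of the list was called. *Tcf7*, a factor of naive and memory-precursor cells, stood at 304 against 201 CPM (ratio 0.64) and *Cd8a* at 167 against 111 CPM (0.64), each higher in 8 of 8 sublibraries. For *Cd8b1* and *Il7r* the ratios were 0.70 (6 of 8) and 0.58 (7 of 8). *Cxcr6*, which encodes a chemokine receptor, stood at 44.8 CPM against 108 CPM, a ratio of -1.20 (SD 0.99). *Cd44*, an adhesion receptor gene of antigen-experienced cells, stood at 176 against 349 CPM (-0.94) and *Tox*, a factor of chronically stimulated cells, at 722 against 1181 CPM (-0.66), each lower in 8 of 8. *Cd4* was at 82.6 against 193 CPM and *Ikzf2* at 395 against 765 CPM, each with 1 sublibrary on the other side. Below the ribosomal limit the ratio of *Klf2* was 1.71, those of *Cxcr6* and *Cd44* -0.80 and -0.55, and that of *Cd8b1* -0.02.

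Among the largest ratios in T-cell-like cells outside the list were those of *Nsg2*, known as a neuronal endosomal protein gene (130 against 17.2 CPM, ratio 2.94), *Ebf1*, a B cell and stromal factor gene (88.2 against 12.9 CPM), and *Rasgrp2*, a guanine nucleotide exchange factor gene of the integrin pathway (151 against 34.5 CPM, ratio 2.17). *Ebf1* is no T cell gene, and the summed B cell markers in T-cell-like cells stood at 227 against 123 CPM, whose part in it was not tested. Among those called lower were the purinergic receptor gene *P2rx7* (43.4 against 131 CPM), the NF-kappaB brake *Tnfaip3* (209 against 500 CPM) and the nuclear receptor genes *Nr4a3* and *Nr4a2* (79.8 against 215 CPM for the latter). In *Tnfaip3* the sublibraries ranged from 178 to 261 CPM with entospletinib and from 379 to 610 CPM with vehicle, without overlap.

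In B-cell-like cells, which need SYK for signalling from the antigen receptor, most genes of the pathway itself stood close to the median gene, while 3 immediate early genes were lower with entospletinib. Of 3405 genes kept, 35 (1.03%) were called higher and 87 (2.56%) lower. On counts thinned to equal depth, where fewer genes were kept, 12 and 10 were called, so the splits are not directly comparable. From clusters 28 were called lower. *Syk* stood at 1135 CPM (1076 to 1198) against 1191 CPM (1121 to 1263), a ratio of -0.07 (SD 0.18), and *Blnk*, the adaptor it phosphorylates, at 793 against 594 CPM (ratio 0.42, 7 of 8 higher). Of 19 kept genes of the SYK pathway, 2 were called lower and none higher, with a median of -0.09. Among 16 kept immediate early genes the median was -0.86, with *Fosb* (50.4 against 156 CPM, ratio -1.62), *Egr1* (33.6 against 100 CPM, -1.57) and *Atf3* (89.1 against 191 CPM, -1.10, and -0.82 without sublibrary 2) called lower. The *Fosb* sublibraries ranged from 26.8 to 75.4 CPM (median 51.2) with entospletinib and from 121 to 187 CPM (median 158) with vehicle, without overlap. On counts thinned to equal depth, the ratios of *Fosb*, *Egr1* and *Atf3* were -1.15, -0.63 and -0.39.

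Most markers of mature B cells differed little between the pools in the gated cells. Of 14 kept genes of B cell maturation, *Cr2* alone was called, higher with entospletinib, and the list's median was 0.20. *Cr2*, the complement receptor gene highest on marginal zone B cells, stood at 365 CPM (331 to 401) against 178 CPM (151 to 207), a ratio of 1.03 (SD 0.49, 0.92 without sublibrary 1), and thinning brought it to 0.78. The IgM gene *Ighm* (617 against 611 CPM) and the IgD gene *Ighd* (501 against 470 CPM) gave ratios of 0.01 and 0.09. *Fcer2a*, which encodes CD23, gave 0.43 with 6 of 8 sublibraries higher. When B-cell-like cells were taken from clusters the *Ighm* ratio was negative and further from the median gene, so its value depends on how the class was taken.

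Part of the B-cell-like calls named genes of other cells. *Nlrp3* (10.1 against 136 CPM) and the macrophage genes *Mrc1* (68.1 against 324 CPM), *Axl* and *Ms4a7* led the lower calls, and the higher ones included *Atp1b1*, a sodium pump subunit gene abundant in tubules (ratio 2.43). In the same cells the 5 macrophage gate markers summed to 294 CPM with entospletinib and 746 CPM with vehicle, and the 10 proximal tubule markers to 213 and 66.5 CPM. When B-cell-like cells were instead taken from clusters, 28 genes were called lower, and with called doublets removed, 51. The part of carried-over RNA in these calls was not tested beyond those values.

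**Figure D3:**
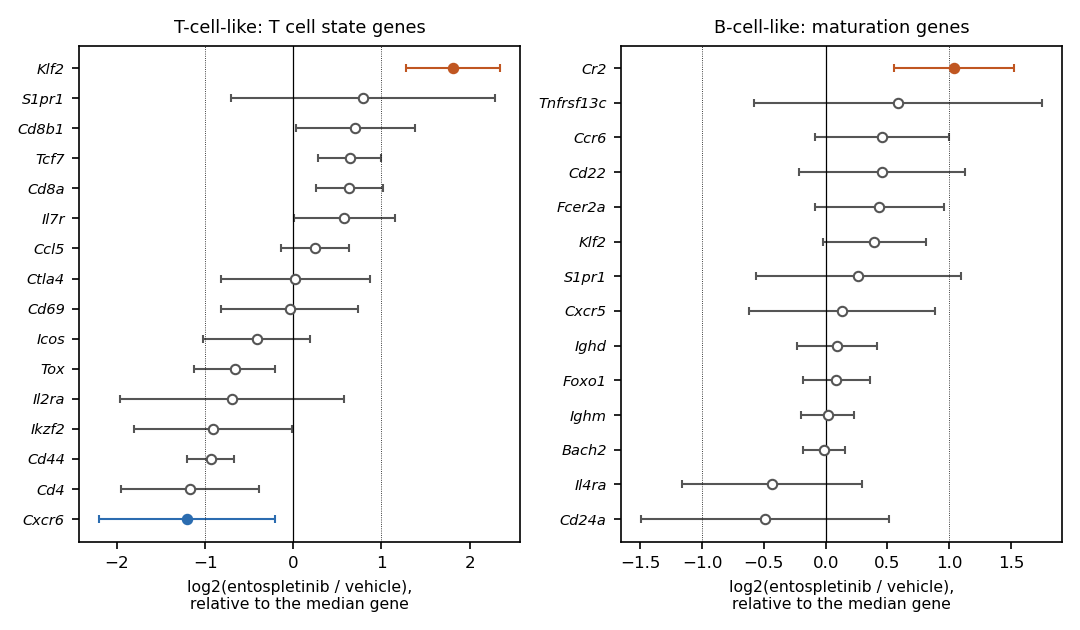
Relative log2 ratio, entospletinib over vehicle at day 14 (x axes), of genes of T cell state in T-cell-like cells and of B cell maturation in B-cell-like cells (y axes). Bars give the SD over 8 sublibraries, filled points are called genes and dotted lines mark 2-fold. *Klf2* (1.81) is called higher and *Cxcr6* (-1.20) lower in T-cell-like cells, whereas in B-cell-like cells only *Cr2* (1.03) is called.

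In endothelial-like cells, *Zbtb16*, *Fkbp5* and *Tsc22d3*, all induced by glucocorticoids, were higher with entospletinib. Of 3644 genes kept, 81 (2.22%) were called higher and 39 (1.07%) lower, against 65 and 53 with TMM and 30 and 8 on thinned counts. Of 11 kept genes of the glucocorticoid response list, 10 had a positive ratio, 3 were called higher and none lower, with a median of 0.62. *Zbtb16*, a zinc finger repressor gene, stood at 719 CPM (674 to 767) with entospletinib, 64.6 CPM (51.1 to 80.6) with vehicle and 422 CPM in the control. Its sublibraries ranged from 623 to 828 CPM (median 717) and from 21.3 to 99.1 CPM (median 62.5), far apart, and the ratio was 3.50 (SD 0.70). *Fkbp5* stood at 660 CPM (617 to 705) against 179 CPM (156 to 204). *Tsc22d3*, which encodes the glucocorticoid-induced leucine zipper, stood at 100 CPM (84.1 to 119) against 34.8 CPM (25.1 to 47.0), a ratio of 1.55 (SD 0.50). *Sgk1*, a kinase gene of the same response, was at 236 against 121 CPM (ratio 0.99) and *Klf9* at 200 against 113 CPM (0.86), both higher in 8 of 8 sublibraries without reaching the 2-fold call. *Per1*, a clock gene with a glucocorticoid response element, gave 0.57 (6 of 8).

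The counts of the same list in the other classes were lower or mixed. In macrophage-like cells 3 of 10 kept members were called higher (*Fkbp5*, *Zbtb16* at 328 against 115 CPM, and *Tsc22d3* at 141 against 53.3 CPM) and 1 lower, with a median of -0.19, among 3323 genes of which 25 (0.752%) were called higher and 26 (0.782%) lower (15 and 48 with TMM). In T-cell-like cells none of 6 was called, with a median of -0.12, and 1 was at least 2-fold higher without meeting the call. *Tsc22d3* there had ratios of 1.44 to 1.85 when each sublibrary was left out in turn. In proximal-tubule-like cells 1 of 8 was called higher, where 2.37% of all kept genes were, with a median of 0.43. Of the circadian clock list, 1 of 6 kept genes in endothelial-like cells was called, *Nr1d2*, a repressor of the clock (87.6 against 36.4 CPM, ratio 1.29), and the list's median was -0.13.

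*Plat* and *Klf2* were also called higher in endothelial-like cells. *Plat*, which encodes tissue plasminogen activator, stood at 377 CPM (345 to 412) against 133 CPM (114 to 156), a ratio of 1.53 (SD 0.94), and *Klf2*, a factor induced by laminar flow, at 192 CPM against 86.9 CPM, a ratio of 1.17 (SD 0.46). *Klf4*, which acts with *Klf2*, stood at 146 against 72.0 CPM with 7 of 8 sublibraries higher. *Igfbp5*, abundant in peritubular capillaries, was at 2684 against 1755 CPM (ratio 0.64, 8 of 8) and in the control at 3023 CPM. The basement membrane collagen gene *Col4a2* was at 583 against 986 CPM (-0.73, lower in 8 of 8), with 773 CPM in the control. Over the lists of endothelial activation (9 kept) and kidney endothelial segments (10 kept), 1 gene each was called higher and none lower, with medians of 0.03 and 0.47. Other high ratios belonged to *Cyp26b1*, a retinoic acid-degrading enzyme gene (159 against 24.8 CPM, control 232), and *Adamtsl2*, a matrix protein gene (84.5 against 17.4 CPM).

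Class II antigen presentation genes had negative ratios in both parenchymal classes examined. In endothelial-like cells all 6 kept members had a negative ratio, 2 were called lower, where 1.07% of all kept genes were, and the median was -0.98. *H2-Ab1* stood at 138 against 322 CPM, with sublibraries from 109 to 154 CPM and from 206 to 482 CPM, and the control at 114 CPM. The macrophage gate markers in these cells summed to 273 against 405 CPM, and the 4 called genes *Mrc1*, *Plek*, *Ctss* and *Fgr* among those lower are also expressed by macrophages; their part in the class II values was not tested. In proximal-tubule-like cells the median of 6 kept class II genes was -1.29 with 2 called lower (1.66% of all kept genes), beside macrophage markers of 265 against 641 CPM. Among classes that express these genes themselves, the class II median was -0.12 in macrophage-like, -0.14 in cDC2-like, -0.20 in B-cell-like and -0.0065 in cDC1-like cells with no member called. In classical-monocyte-like cells it was -0.91, with all 6 kept members negative and 2 called lower (1.68% of all kept genes), in a class whose makeup by cluster differed between the pools.

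Proximal-tubule-like cells, although few (278 and 122), gave higher *Ppara* and *Slc22a12* and lower *Il34* with entospletinib, while most other transport and injury genes did not meet the call. Of 2655 genes kept, 63 (2.37%) were called higher and 44 (1.66%) lower, against 4 and 4 on thinned counts, where fewer genes were kept. The gate's own markers, themselves proximal tubule genes, summed to 15208 against 10538 CPM, and 15.8% against 28.7% of the cells lay near the gate's limit. Their part in the transport and injury values below was not tested. Of 23 kept genes of proximal tubule transport and metabolism, 17 had a positive ratio and 2 were called higher, with a median of 0.64. *Ppara*, the nuclear receptor gene of fatty acid oxidation, stood at 655 CPM (597 to 717) against 188 CPM (151 to 232), and 224 CPM in the control. Its sublibraries ranged from 398 to 863 CPM (median 632) and from 90.5 to 275 CPM (median 197) without overlap, and its ratio was 1.95 (SD 0.46). *Slc22a12*, the urate transporter gene, stood at 370 against 149 CPM (ratio 1.46, SD 0.91), beside 384 CPM in the control. *Pck1*, for gluconeogenesis, was at 411 against 180 CPM and *Gatm*, for creatine synthesis, at 790 against 440 CPM, each higher in 7 of 8 sublibraries. The *Pck1* ratio of 1.35 was 0.06 on counts thinned to equal depth, where fewer counts remained.

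All 7 kept genes of tubule injury had a negative ratio, with a median of -0.97, and 1 was called lower, where 1.66% of all kept genes were. That gene was *Il34*, a ligand of the CSF-1 receptor, at 77.2 CPM (58.3 to 100) against 186 CPM (149 to 230), with a ratio of -1.10 (SD 0.56, -0.98 without sublibrary 5 or 6) and 24.6 CPM in the control. *Havcr1*, which encodes kidney injury molecule-1, was at 38.6 CPM (25.7 to 55.8) against 145 CPM (112 to 184) and 1.23 CPM in the control. In *Havcr1* the sublibraries overlapped widely, from 0 to 149 CPM (median 15.04) with entospletinib and from 0 to 530 CPM (median 21.4) with vehicle. The ratio of *Havcr1* was -1.73 (SD 2.24) with 1 of 8 sublibraries higher, a tally in which sublibraries at 0 take their side from the added count of 0.5. Without sublibrary 5 the levels were 41.7 against 67.7 CPM and the ratio -0.53. *Vcam1*, a marker of failed repair, was at 125 against 208 CPM with an SD of 3.34 around a ratio of -0.57. With entospletinib sublibrary 3 stood at 525 CPM, and without it the values were 49.3 against 234 CPM and the ratio -2.04. *Spp1*, which encodes osteopontin, was at 859 against 1828 CPM with 4 of 8 sublibraries higher. For both genes the sublibraries lay on either side of 0. Negative ratios were not particular to injury genes in this class. All 13 kept SYK pathway genes (median -0.84) and all 10 kept NF-kappaB targets (-1.20) were negative, while 24 of 26 ribosomal protein genes were positive.

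Immediate early genes had negative ratios in proximal-tubule-like cells as well. All 12 kept members had a negative ratio with a median of -1.16, and *Atf3* (95.1 against 351 CPM, ratio -1.71) and *Fosb* (114 against 403 CPM, -1.65, and -2.34 without sublibrary 3) were called lower. *Jun* was at 291 against 734 CPM with 1 sublibrary on the other side. Leukocyte markers in these cells did not move together. They were at 175 against 338 CPM for neutrophils, 60.7 against 193 CPM for classical monocytes, 24.8 against 104 CPM for *Ccr7*-positive dendritic cells and 265 against 641 CPM for macrophages, but at 243 against 121 CPM for B cells, 96.5 against 41.2 CPM for T cells and 30.3 against 10.8 CPM for pDCs. Their part was not tested. Outside the lists, *Igfbp5* had the largest ratio of the class, at 181 CPM (151 to 214) against 21.7 CPM (10.4 to 39.8), or 3.16 (SD 1.06), and *Fkbp5* stood at 349 against 62.8 CPM. With called doublets removed, the calls in this class dropped to 14 higher and 3 lower.

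**Figure D4:**
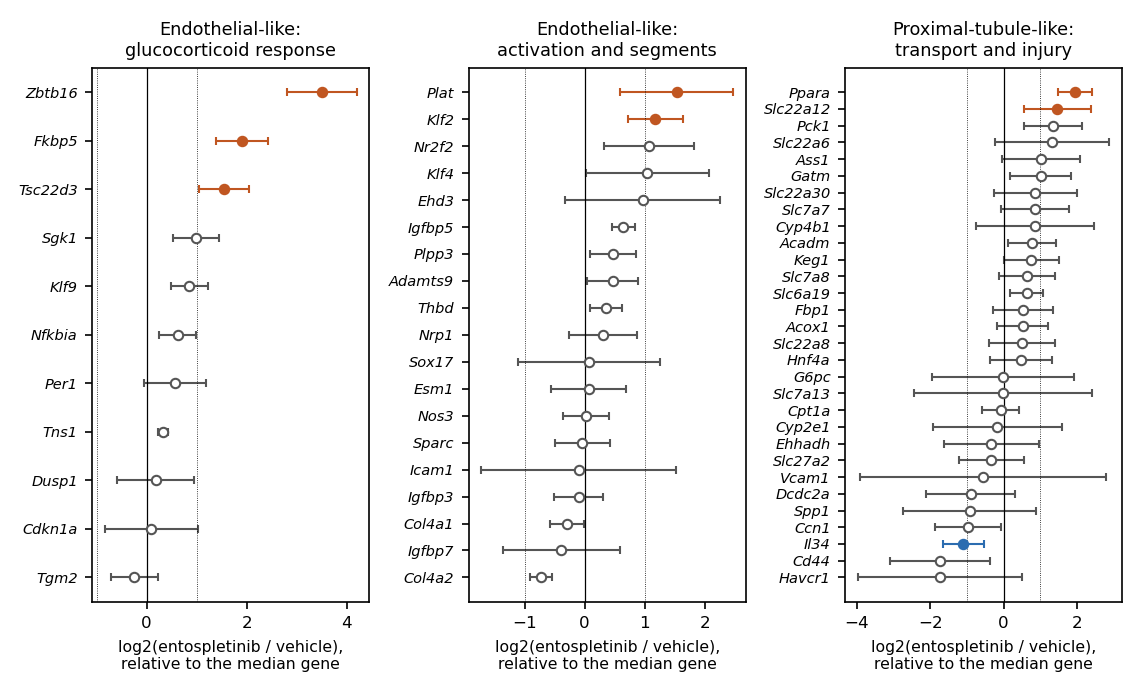
Relative log2 ratio, entospletinib over vehicle at day 14 (x axes), for listed genes (y axes) in endothelial-like cells (left and middle) and proximal-tubule-like cells (right). Bars give the SD over 8 sublibraries, filled points are called genes and dotted lines mark 2-fold. *Zbtb16* (3.50), *Fkbp5* (1.91) and *Tsc22d3* (1.55) stand apart on the left, and the bars of *Vcam1* and *Havcr1* on the right span both sides of 0.

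In conventional dendritic cells *Fkbp5* was called higher, and in cDC1-like cells *Nr4a3* was called lower. The gated cells lay partly in different clusters, with cluster 8, which has *Nr4a3* among its leading genes, holding 3.74% against 9.80% of cDC1-like and 29.7% against 42.7% of cDC2-like cells, beside the shares of cluster 1 given above. A change within like cells and a different makeup cannot be told apart. In cDC1-like cells, 21 of 3270 genes (0.642%) were called higher and 29 (0.887%) lower, against 10 and 59 with TMM and 12 and 10 on thinned counts. *Dusp5*, a phosphatase gene that limits ERK signalling, stood at 26.2 against 107 CPM, *Nlrp3* at 30.8 against 119 CPM and *Traf1*, an adaptor gene of TNF receptors, at 40.0 against 100 CPM. *Egr1* (50.8 against 115 CPM) and the integrin gene *Itgax* (89.3 against 185 CPM, just under 2-fold without sublibrary 1) were also called lower. For *Cd80*, a costimulatory ligand gene, the levels were 81.6 against 182 CPM with 1 sublibrary on the other side. *Batf3*, the lineage factor gene of cDC1, was at 100 against 50.2 CPM, higher in 7 of 8. Of 12 kept genes of dendritic cell function, 1 was called lower and none higher, with a median of -0.52. Beside these values, markers of *Ccr7*-positive dendritic cells summed to 47.7 CPM (32.4 to 67.7) against 119 CPM (108 to 130.3) in cDC1-like cells and neutrophil markers to 269 against 433 CPM, whose part was not tested. In cDC2-like cells, 8 of 1295 genes (0.618%) were called higher and 9 (0.695%) lower (4 and 15 with TMM), among the latter the metalloelastase gene *Mmp12* (74.4 against 311 CPM). In pDC-like cells, 17 of 1411 (1.2%) were called higher, including the stress-inducible chaperone gene *Hspa1b* (215 against 68.7 CPM), and 7 (0.496%) lower (10 and 12 with TMM). The cDC2-like and pDC-like classes had fewer calls in each direction on thinned counts, where fewer genes were kept.

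The 128 neutrophil-like cells left with entospletinib differed from the 2071 with vehicle, but the gate held different cells in the 2 pools. Of the gated cells, 23.4% with entospletinib and 77.8% with vehicle lay in the neutrophil-like cluster, and the summed neutrophil gate markers stood at 6656 and 10286 CPM. Of 944 genes, 34 (3.6%) were called higher and 53 (5.61%) lower, against 8 and 167 with TMM and 21 and 13 on thinned counts. Among those lower were *Il1rn*, the interleukin 1 receptor antagonist gene, at 66.8 CPM (33.3 to 120) against 501 CPM (478 to 525), the adhesion gene *Icam1* at 78.9 against 502 CPM and the chemokine gene *Cxcl2* at 237 against 1016 CPM. The higher calls included the heat shock gene *Hspa1b* (322 against 114 CPM) and the class II gene *H2-Eb1* (1737 against 846 CPM), a gene of antigen-presenting cells, beside cDC2 gate markers that summed to 723 against 315 CPM. Taken from clusters, where 31 cells remained with entospletinib, 1 gene was called in each direction and the *H2-Eb1* ratio of 1.16 turned to -0.81. In classical-monocyte-like cells (111 and 352), 13 of 833 genes (1.56%) were called higher, led by *Fkbp5* with 344 against 45.9 CPM, and 14 (1.68%) lower, including the class II gene *H2-Aa* (405 against 823 CPM, ratio -1.03, and -0.86 without sublibrary 2), and the split was 7 and 27 with TMM and 2 and 1 on thinned counts. Macrophage gate markers in these cells summed to 1049.5 against 1701 CPM, and their part in the *H2-Aa* value was not tested. The gated cells also lay in different clusters, with 45.9% against 25.9% in the unnamed cluster 12 (*Adgre4*, *Ace*), 0.901% against 5.97% in cluster 8 and 4.505% against 6.82%, 1.80% against 6.82% and 2.70% against 9.09% in macrophage clusters 0, 4 and 7. For all values of classical-monocyte-like cells, class II genes included, a change within like cells and a different makeup cannot be told apart.

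Across the lists of general processes, the few interferon response genes that were kept stood close to the median gene. None was called in any class in which members were kept, with medians from 0.10 to 0.32. Of 21 members, 9 were kept in endothelial-like, 5 in macrophage-like and 4 in cDC1-like cells. In pDC-like, B-cell-like and T-cell-like cells 3, 2 and 1 were kept, and in the other classes none, so those classes were not assessed. Heat shock genes were called only in neutrophil-like (2 of 6 higher) and pDC-like cells (1 of 8 higher), and class I presentation genes only in neutrophil-like (1 of 3 higher) and cDC1-like cells (1 of 10 higher). The backgrounds of higher calls over all kept genes were 3.6%, 1.2% and 0.642% in neutrophil-like, pDC-like and cDC1-like cells, so 1 call in a short list is little to read from. Of NF-kappaB targets, 1 of 14 was called higher and 4 lower in neutrophil-like cells and 2 of 11 lower in T-cell-like cells. In classical-monocyte-like, macrophage-like, cDC1-like and proximal-tubule-like cells 1 member each was called lower, and medians were negative in all 10 classes, from -0.21 to -1.20. The backgrounds of lower calls were 5.61% in neutrophil-like, 1.23% in T-cell-like, 1.68% in classical-monocyte-like, 0.782% in macrophage-like, 0.887% in cDC1-like, 2.56% in B-cell-like, 1.07% in endothelial-like and 1.66% in proximal-tubule-like cells. The SYK pathway list had negative medians in all 10 classes, from -0.09 to -0.84. It held 1 higher call, in neutrophil-like cells, and lower calls in neutrophil-like (3 of 20), cDC1-like (1 of 21), B-cell-like (2 of 19), endothelial-like (3 of 15) and proximal-tubule-like cells (1 of 13).

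RNA of other cells was measured in every class through the summed markers it should lack. Erythrocyte genes summed to 70.5 CPM with entospletinib against 3.97 CPM with vehicle in macrophage-like cells, 58.0 against 2.18 CPM in B-cell-like and 62.7 against 4.14 CPM in endothelial-like cells. Distal tubule markers were higher with entospletinib in the same classes, at 87.3 against 40.3, 120 against 30.5 and 100 against 48.0 CPM. Neutrophil markers were lower, at 225 against 344, 129 against 281 and 135 against 245 CPM. *Atp1b1*, called higher in 4 leukocyte classes, moved with these values, and the part of carried-over RNA in the calls was not tested.

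**Figure D5:**
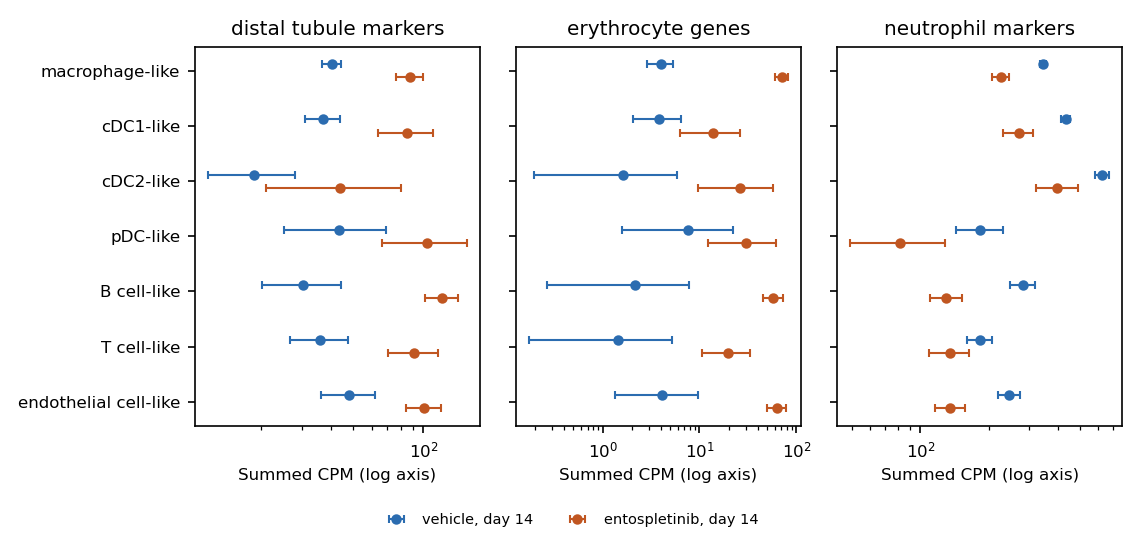
Summed expression (x axes, CPM, log scale) of distal tubule markers, erythrocyte genes and neutrophil markers in 7 classes (y axis) that should lack them, with exact Poisson 95% intervals. Entospletinib lies to the right of vehicle for the first 2 sets (erythrocyte genes in macrophage-like cells 70.5 against 3.97 CPM) and to the left for neutrophil markers (225 against 344 CPM).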

How the data were processed

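Kidney leukocyte suspensions were profiled with Evercode split-pool single-cell RNA-seq. The authors made the deposited matrices of counts per gene and cell with the Parse Biosciences pipeline version 1.1, per their readme, on mm10, per the submitters' processing notes; the annotation release is not given in the sources used here. GEO's 8 samples are sublibraries of all 7 conditions, so conditions were read from the deposited cell table. Limits on cells were more than 300 genes, fewer than 20000 counts and less than 25% mitochondrial counts. Cells were thinned to 500 counts and gated on marker lists for 20 classes. Full counts were summed per class of at least 100 cells, with a prior count of 0.5, and genes kept at a mean of at least 50 CPM and 30 expected counts. Named genes were those of the lists, the 5 largest calls each way per class, genes called in most classes, and genes added after their values were seen. Members and lists were chosen with earlier results of these data known, and some genes are not reported here. Doublets (13.3% and 13.5% called) were kept and removed in an alternative. Other alternatives were depths of 300 and 1000, a 1.5% ribosomal limit, clusters, TMM, a 20 CPM minimum, thinned counts and leaving out each sublibrary. The counting precision is given by the intervals. Scripts were tested on simulated data and used Python 3.11.15, numpy 2.4.6, scipy 1.17.1, pandas 2.3.3, scikit-learn 1.9.0, igraph 0.11.9, leidenalg 0.10.2, matplotlib 3.10.9, R 4.3.3 and edgeR 4.0.16, the last for TMM factors only.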

Additional observations from a re-analysis of the deposited data

Results flagged for a closer look

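In 16 of 228 groups of 8 sublibraries, 1 sublibrary stood apart from the other 7 by Dixon's criterion, where chance would mark about 11.4. Among shares these were cDC1-like cells with vehicle (6.11%) and proximal-tubule-like cells with vehicle (1.098%). In lymphocytes they were *Cr2* with entospletinib (549.7 CPM) and *Nlrp3* with vehicle (449.8 CPM) in B-cell-like cells, and *Il7r* (469 CPM) and *Nr4a3* (745 CPM) with vehicle in T-cell-like cells. In endothelial-like cells they were *Igfbp5* with entospletinib (3117 CPM), and *Klf2* (137 CPM) and *Tsc22d3* (78.7 CPM) with vehicle. In neutrophil-like cells with vehicle they were *Cxcl2* (1251 CPM) and *Il1rn* (639 CPM). In proximal-tubule-like cells they were *Gatm* with vehicle (805 CPM), and *Fosb* (345 CPM), *Havcr1* (149 CPM), *Nr4a3* (61.2 CPM) and *Vcam1* (525 CPM) with entospletinib.

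Some differences between entospletinib and vehicle had the opposite sign at an earlier day in all 8 sublibraries, and the difference between days was not tested. The log2 ratio of the macrophage-like share was 1.34 at day 1 and 0.40 at day 7 against -0.21 at day 14. The cDC1-like share had 0.91 at day 1 against -0.52, and the cDC2-like share 1.53 at day 1 and 0.76 at day 7 against -0.63. In macrophage-like cells the day-7 ratios of *Cdk8* (-1.51) and *Il31ra* (-1.56), the day-1 ratio of *Lars2* (0.43), and the day-1 and day-7 ratios of *Rn7sk* (1.58 and 0.82) were opposite to day 14 (1.08, 1.67, -1.34 and -1.69). *H2-Aa* in classical-monocyte-like cells had 0.82 at day 7 against -1.03.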

How the results depend on the processing

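Each condition was 1 pool, so these alternatives show how the values depend on processing and depth, not on animals. No paired analysis was possible because each condition was 1 pool, with no second biological sample to pair. The ratios were formed within each of the 8 sublibraries, which held both conditions. Log2 share ratios at 300 counts were -1.44 for classical-monocyte-like, 1.61 for pDC-like, 0.28 for ILC2-like (opposite to -0.25) and 2.33 for B-cell-like cells. At 1000 counts, which left out 6597 and 2674 cells, they were -2.32 for neutrophil-like, -0.66 for classical-monocyte-like, -0.52 for macrophage-like, -0.10 for cDC1-like, 0.071 for T-cell-like, -1.47 for NK-cell-like (opposite to 0.17), 1.40 for B-cell-like and 2.39 for proximal-tubule-like cells. Below the ribosomal limit they were 0.040 for macrophage-like (opposite), -0.86 for cDC1-like, -0.00097 for T-cell-like (opposite) and 1.80 for B-cell-like cells. From clusters they were -5.18 for neutrophil-like, -0.0027 for macrophage-like, -1.12 for cDC2-like and -0.12 for NK-cell-like cells (opposite). Over leukocyte-gated cells alone the macrophage-like ratio was -0.058.

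Leaving out each sublibrary gave ranges of -3.50 to -3.33 (neutrophil-like), -1.13 to -1.02 (classical-monocyte-like), 1.05 to 1.36 (nonclassical-monocyte-like), -0.23 to -0.19 (macrophage-like), -0.57 to -0.43 (cDC1-like), -0.70 to -0.57 (cDC2-like), -0.86 to -0.56 (*Ccr7* dendritic), 1.04 to 1.17 (pDC-like), 0.73 to 0.80 (T-cell-like), 0.03 to 0.27 (NK-cell-like), -0.40 to -0.15 (ILC2-like), 2.07 to 2.15 (B-cell-like), 1.86 to 1.98 (endothelial-like), 1.72 to 1.90 (proximal-tubule-like), 2.37 to 2.60 (loop-like), 2.07 to 2.32 (distal-tubule-like) and -0.84 to -0.42 (stroma-like).

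Relative to TMM, the median gene lay at -0.27 over all cells, at -0.45 in neutrophil-like and at -0.19 to -0.01 in the other classes. Genes called higher and lower with TMM were 92 and 258 over all cells, 8 and 167 in neutrophil-like, 7 and 27 in classical-monocyte-like, 15 and 48 in macrophage-like, 10 and 59 in cDC1-like, 4 and 15 in cDC2-like and 10 and 12 in pDC-like cells, with 75 lower in T-cell-like cells. With a minimum of 20 CPM they were 360 and 217 over all cells, 52 and 60 in macrophage-like and 123 and 67 in endothelial-like cells. On thinned counts, where fewer genes were kept, they were 21 and 13 in neutrophil-like, 2 and 1 in classical-monocyte-like, 12 and 10 in cDC1-like, 3 and 3 in cDC2-like, 1 and 2 in pDC-like, 12 and 10 in B-cell-like, 30 and 8 in endothelial-like and 4 and 4 in proximal-tubule-like cells, with 171 lower over all cells and 53 higher in T-cell-like cells. Below the ribosomal limit they were 17 and 23 in neutrophil-like, 7 and 9 in classical-monocyte-like and 17 and 13 in T-cell-like cells, with 13 lower in cDC1-like, 4 higher in cDC2-like and 19 higher in B-cell-like cells. From clusters they were 1 and 1 in neutrophil-like and 21 and 14 in cDC2-like cells, with 13 lower in pDC-like and 28 lower in B-cell-like cells. With doublets removed they were 14 and 3 in proximal-tubule-like cells, with 30 lower in neutrophil-like, 8 lower in classical-monocyte-like, 19 lower in cDC1-like, 11 higher in pDC-like and 51 lower in B-cell-like cells. Of ratios of called genes, *H2-Eb1* in neutrophil-like cells alone turned, to -0.81 from clusters. Of those not called, *Cd8b1* in T-cell-like cells went from 0.70 to -0.02 below the ribosomal limit, *Ighm* in B-cell-like cells from 0.01 to -0.77 from clusters, and *Ighd* there from 0.09 to -0.07 with doublets removed. Leaving out each sublibrary for single genes was added after seeing the data. It turned the sign of none of 202 called ratios and took 21 under 2-fold, among them *Il34* in proximal-tubule-like (-0.98, without 5 or 6), *H2-Aa* in classical-monocyte-like (-0.86, without 2, also without 5, 6 or 8), *Itgax* in cDC1-like (-0.9988, without 1) and, in B-cell-like cells, *Atf3* (-0.82, without 2) and *Cr2* (0.92, without 1, also without 4). On thinned counts 27 of 238 ratios moved beyond 1 SD. Where no value above shows it, the cause was not tested.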
